A study of Mus musculus with 10 samples.

Results

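CD4+ T cells from tumour-bearing hosts of an adoptive transfer were compared according to whether the donor T cells carried the receptor for thymic stromal lymphopoietin (TSLP). The comparison held 5 of the 10 RNA-seq libraries of the series, chosen by their labels: 3 TEST and 2 CONTROL libraries, all from lymph nodes of C57BL/6 mice. TEST hosts were K14-TSLP +/tg, TSLPR -/- and received Ly5.1 CD4+ T cells. CONTROL hosts were TSLPR -/- and received TSLPRKO CD4+ T cells. The CONTROL label names no K14-TSLP transgene, whereas the methods of the study name hosts both with and without it for such transfers. Whether CONTROL hosts carried it is therefore uncertain, and if they did not, the receptor on the donor T cells and the transgene of the host differed together and cannot be told apart. K14 is the keratin 14 promoter, which drives the transgene in basal epithelial cells, and Ly5.1 is the congenic CD45.1 form of Ptprc that marks donor cells. All hosts lacked the TSLP receptor in their own cells. By the methods of the study for such transfers, hosts were sublethally irradiated before they received the T cells and were then implanted with PyMT mammary tumours. For its T cell RNA-seq the text of the study names PyMT mice with the TSLP transgene or without the TSLP receptor, and no transfer hosts. After sorting, the cells were stimulated in culture for several hours with anti-CD3, anti-CD28, IL-2 and TSLP per the labels, whereas the text of the study calls them freshly sorted. Whether the sort separated donor cells from residual host CD4+ T cells was not stated.

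TEST 1 (draining nodes) and TEST 2 (non-draining nodes) came from the same 4 mice, and TEST 3 (non-draining nodes) from 2 other mice. CONTROL 1 (draining nodes) pooled 4 mice, and CONTROL 2 (draining and non-draining nodes) was 1 mouse. The mouse pool was therefore the replicate, with 2 TEST and 2 CONTROL mouse samples. Expression was given as FPKM, fragment counts scaled to transcript length and to the mapped fragments of the library. Of 17457 genes in the table, 10816 reached 1 FPKM in at least 2 of the 5 libraries and were tested.

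TSLP is a cytokine of epithelial cells. It binds a receptor made of the chain encoded by Crlf2 and the IL-7 receptor alpha chain, and signals through JAK kinases and STAT5. In CD4+ T cells it favours the T helper 2 (Th2) fate, marked by the transcription factor GATA3 and by the cytokines IL-4, IL-5 and IL-13.

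The targeted gene followed the labels. Crlf2, on chromosome 5 at 109554709 to 109559128 of the GRCm38.p6 annotation, was at 12.8, 9.70 and 7.27 FPKM in TEST 1, 2 and 3, and at 0.15 and 0.21 FPKM in CONTROL 1 and 2. Every TEST library lay above both CONTROL libraries. The difference was 3.09 ± 0.40 on the log2(FPKM + 1) scale (SE), with an adjusted p of 0.226 by limma. The T cell receptor chain Cd3e was at 359 to 470 FPKM in all 5 libraries, and the co-receptor Cd4 at 105 to 146 FPKM, so the labelled cell type had its defining markers.

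The libraries differed in ways that bear on every count. FPKM sums ranged from 359703 to 455202, and the relative depth read from the lowest FPKM values was 0.64 to 1.20 times that of TEST 1, while absolute depth was unknown. Ribosomal RNA genes took 22.1% to 26.0% of the FPKM sum in TEST and 13.6% to 17.3% in CONTROL. CONTROL 2 stood apart: its first principal component was 66.1, against -35.4 to 4.16 in the other 4 libraries. Its log2 values correlated with those of CONTROL 1 at 0.898 and with those of the TEST libraries at 0.852 to 0.892, against 0.967 between TEST 1 and TEST 2, across genes that are not independent. Over all genes tested the median difference was -0.23 (log2, TEST minus CONTROL), so differences are best read relative to that shift.

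**Figure D1:**
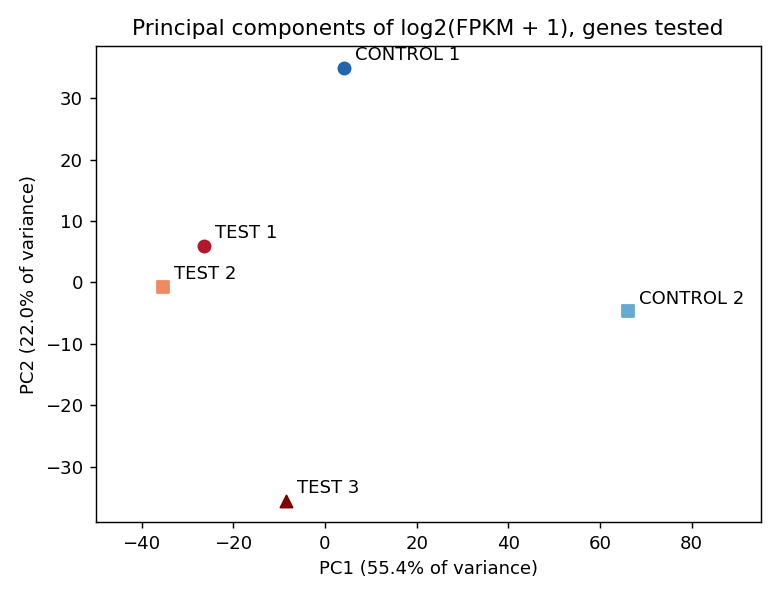
First and second principal components of log2(FPKM + 1) over the 10816 genes tested, 1 point for each library, with the percent of variance on each axis. CONTROL 2 lies at 66.1 on the first component, and the other 4 libraries lie between -35.4 and 4.16.

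Few genes passed the test across all genes. With limma on the 2 TEST and 2 CONTROL mouse samples, 2 genes rose in TEST (0.0185% of genes tested) and 0 fell, and at an unadjusted p under 0.05 there were 249 higher and 877 lower genes (together 10.4% of genes tested). Counted without a test, 810 genes (7.49%) had all 3 TEST libraries above both CONTROL libraries and 3214 (29.7%) had them below. With a gap of at least 2-fold between the nearest libraries, on the FPKM + 1 scale, the counts were 48 (0.444%) and 74 (0.684%). The balance of directions depended on scaling. With median-ratio scaling the all-gene median was 0.01, and 1746 genes lay above and 1684 below, a higher share of 50.9% in place of 20.1%. With TPM the median was -0.42, with 546 above and 4012 below. Without the ribosomal RNA genes it was -0.26, with 876 above and 2943 below. Under both TPM and removal of the ribosomal RNA genes, 1 gene fell by the limma test, the class I gene H2-Q6.

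The gene with the smallest p was Hdc, which encodes histidine decarboxylase, the enzyme that makes histamine. Hdc (chromosome 2, 126593659 to 126624025) was at 54.5, 44.3 and 51.7 FPKM in TEST 1, 2 and 3, and at 0.26 and 0.70 FPKM in CONTROL 1 and 2. The 3 TEST libraries were close to each other and far above both CONTROL libraries. Hdc rose by 5.13 ± 0.34 on the log2 scale, 35.1-fold on FPKM + 1, with an adjusted p of 0.00782 by limma. Histamine is a product of basophils and mast cells, so their other markers were read beside it. Fcer1a, the high-affinity IgE receptor alpha chain, was listed at 0 in all 5 libraries, the mast cell protease Cpa3 was at 0 in all 3 TEST libraries, and the basophil protease Mcpt8 was at most 0.86 FPKM. The 7 listed basophil and mast cell markers other than Hdc summed to 0.59 to 2.43 FPKM in TEST and 1.84 to 1.93 FPKM in CONTROL. In bulk RNA, a larger share of expressing cells and more RNA per cell cannot be told apart.

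The other gene that passed was Ctse, which encodes the aspartic protease cathepsin E. Ctse (chromosome 1, 131638314 to 131675507) was at 228, 255 and 306 FPKM in TEST 1, 2 and 3, and at 21.6 and 10.7 FPKM in CONTROL 1 and 2. It rose by 4.07 ± 0.36 on the log2 scale, 16.8-fold on FPKM + 1, with an adjusted p of 0.0351 by limma. Both Hdc and Ctse were called in each of the 5 fits that left out 1 library. Of these fits, those without TEST 3, CONTROL 1 or CONTROL 2 had a single mouse sample in that group and took all of the spread from the other group, and those without TEST 1 or TEST 2 dropped 1 library of an averaged pool.

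**Figure D2:**
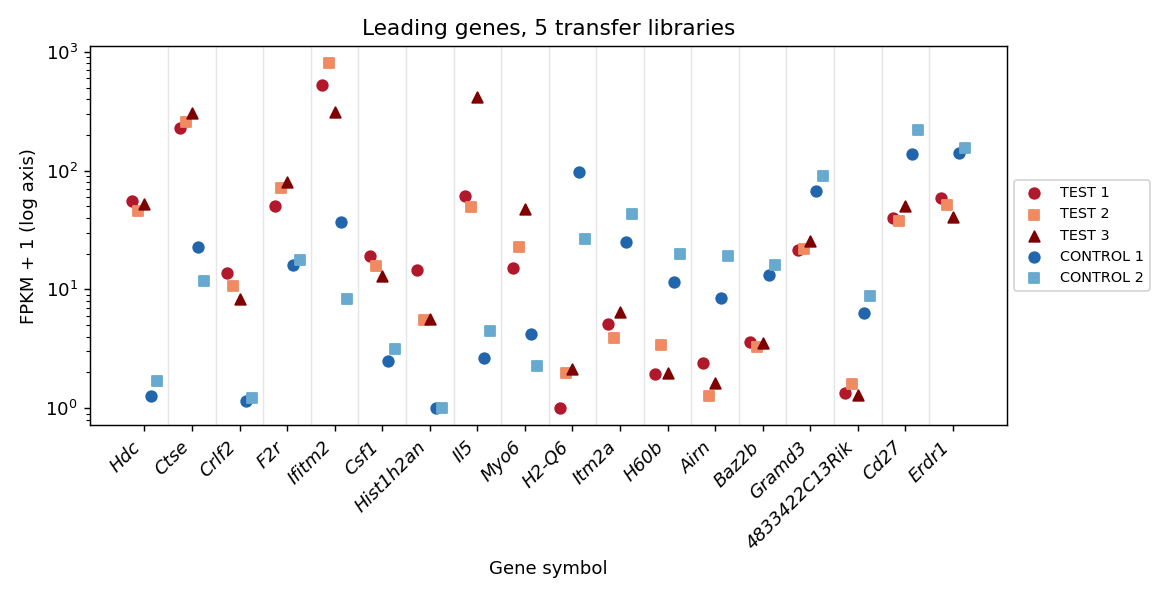
FPKM + 1 on a log axis for the 9 leading genes in each direction, chosen by the smallest p, 1 point for each of the 5 libraries. Hdc and Ctse passed the test, and for every gene shown the 3 TEST libraries do not overlap the 2 CONTROL libraries. Choice by p favours such genes, and of all genes tested 7.49% lay above and 29.7% below without overlap.

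Next in order of p were genes that did not pass. F2r, the thrombin receptor PAR1, was at 49.7, 70.9 and 78.4 FPKM in TEST 1 to 3 and at 14.9 and 16.6 FPKM in CONTROL 1 and 2. Csf1, the growth factor of macrophages, was at 17.9, 14.8 and 12.1 FPKM in TEST and at 1.48 and 2.12 FPKM in CONTROL. Neither gene overlapped between groups, as was so for the 7.49% of all genes tested that lay above, and choice by p favours such genes. Ifitm2, an interferon-inducible membrane protein, was at 523, 800 and 307 FPKM in TEST and at 35.9 and 7.25 FPKM in CONTROL, and its neighbour Ifitm3 at 64.7, 114 and 43.2 against 9.53 and 1.35 FPKM. Ifitm2 passed the limma test when TEST 3 was left out (adjusted p = 0.0281) or CONTROL 1 (adjusted p = 0.0275), and not when CONTROL 2 was (adjusted p = 0.301), each time with a single mouse sample in the reduced group, so that the other group gave all of the spread. Ifitm2 and Ifitm3 are members of 1 gene family, so reads shared between them may be split uncertainly. Cysltr1, a receptor for cysteinyl leukotrienes, was at 19.5, 19.1 and 27.6 FPKM in TEST and at 4.07 and 1.00 FPKM in CONTROL. Myo6, an actin motor, was at 14.3, 21.8 and 46.8 FPKM in TEST and at 3.18 and 1.28 FPKM in CONTROL.

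Cytokines of the type 2 and common beta chain group were the list with the highest median. All 8 tested members had a positive difference, against 31.8% of all genes, and 6 lay above CONTROL without overlap, against 7.49%. Csf2 and Il31 reached 1 FPKM only in TEST libraries, so the filter favoured their positive sign, and with it the place of Csf2 among the 6. The listed Il24 did not reach the filter. By limma 0 passed, with 6 at an unadjusted p under 0.05, against 10.4% of all genes. The list median was 3.71 on the log2 scale, against -0.23 over all genes. Il5, the growth factor of eosinophils, was at 60.0, 48.6 and 413 FPKM in TEST 1, 2 and 3 and at 1.65 and 3.46 FPKM in CONTROL 1 and 2, a difference of 5.46 ± 0.82 (limma adjusted p = 0.226). Il13, an effector cytokine of Th2 cells at barriers, was at 90.7, 90.6 and 698 FPKM in TEST and at 12.1 and 7.87 FPKM in CONTROL, a difference of 4.56 ± 0.81 (limma adjusted p = 0.268). In both genes the TEST libraries lay far above CONTROL, and TEST 3 far above TEST 1 and TEST 2.

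Il3, a growth factor of basophils and other myeloid cells, was at 39.1, 27.1 and 850 FPKM in TEST and at 2.04 and 2.70 FPKM in CONTROL (5.66 ± 1.24, limma adjusted p = 0.385). The gene of GM-CSF, Csf2, was at 9.09, 10.2 and 79.9 FPKM in TEST and at 0.62 and 0.55 FPKM in CONTROL (4.21 ± 0.83, limma adjusted p = 0.306). Il4, the cytokine that drives Th2 fate, was at 23.9, 26.4 and 325 FPKM in TEST and at 7.87 and 10.2 FPKM in CONTROL (3.21 ± 0.98, limma adjusted p = 0.440). None of these 3 genes overlapped between groups, and in each the spread within TEST came from TEST 3. Il9, a growth factor of mast cells, was instead even across TEST, at 10.96, 10.02 and 7.65 FPKM against 2.09 and 0 FPKM in CONTROL. Areg, an epidermal growth factor receptor ligand, overlapped, at 8.53 to 19.3 FPKM in TEST and 10.99 and 1.65 FPKM in CONTROL, as did Il31, a cytokine linked to itch, at 0 to 3.73 FPKM and 0.54 and 0 FPKM. Without TEST 3 the list median was 2.73, and Il4 differed by 1.39.

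**Figure D3:**
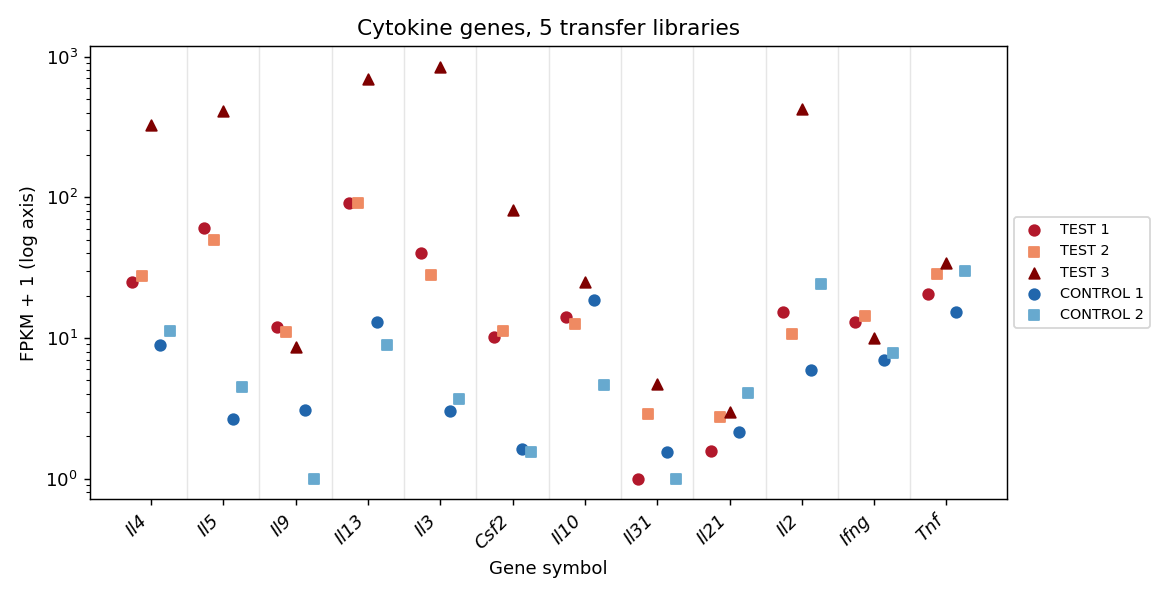
FPKM + 1 on a log axis for cytokine genes, 1 point for each of the 5 libraries. TEST 3 is highest for Il4, Il5, Il13, Il3, Csf2, Il10, Il31, Il2 and Tnf, with Il2 at 427 FPKM against 9.68 to 14.3 FPKM in TEST 1 and TEST 2.

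The promoters of Hdc, Il13 and Il5 are shown because these genes had large differences and, for Il13 and Il5, lie near each other on chromosome 11. The sequences are from RefSeq (GRCm38.p6), 250 bases before to 50 after the start. The Hdc window lies inside the gene range given above, so its start is not the outermost annotated one. Capitals mark GATA motifs, searched on both strands as AGATAA or as AGATAG, and also as TGATAA or as TGATAG.
Hdc, chr2:126618629-126618928, minus strand: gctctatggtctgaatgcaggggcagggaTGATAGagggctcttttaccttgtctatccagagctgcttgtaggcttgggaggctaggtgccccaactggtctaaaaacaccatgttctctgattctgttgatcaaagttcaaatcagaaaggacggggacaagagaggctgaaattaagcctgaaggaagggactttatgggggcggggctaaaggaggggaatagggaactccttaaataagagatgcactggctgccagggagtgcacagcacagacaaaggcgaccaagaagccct
Il13, chr11:53634653-53634952, minus strand: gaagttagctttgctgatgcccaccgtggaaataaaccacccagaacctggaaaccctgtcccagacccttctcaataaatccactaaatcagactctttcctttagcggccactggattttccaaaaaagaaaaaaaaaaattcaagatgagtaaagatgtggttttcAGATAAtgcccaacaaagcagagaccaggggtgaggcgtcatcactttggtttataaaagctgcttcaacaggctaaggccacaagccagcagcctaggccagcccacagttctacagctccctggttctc
Il5, chr11:53720544-53720843, plus strand: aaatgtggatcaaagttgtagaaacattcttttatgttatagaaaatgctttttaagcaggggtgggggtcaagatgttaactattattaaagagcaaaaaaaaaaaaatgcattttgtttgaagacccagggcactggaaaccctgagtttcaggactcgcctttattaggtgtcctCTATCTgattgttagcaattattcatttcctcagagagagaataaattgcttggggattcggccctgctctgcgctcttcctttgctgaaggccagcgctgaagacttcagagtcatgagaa
Each of the 3 windows held 1 GATA motif, and the window of Crlf2, not shown, held 0. None of these 4 windows matched the STAT5-type motif TTCNNNGAA, which was present in 8.30% of all promoters and 7.06% of those of genes tested. A GATA motif was present in 29.8% of all 32851 promoters given, in 18.8% of those of genes tested, in 4 of the 11 promoters matched to the leading genes higher in TEST, in 4 of the 10 matched to the leading genes lower in TEST and in 6 of the 9 promoters of the type 2 cytokine list. These are matches of letters, not sites.

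Regulators and receptors of Th2 cells gave smaller differences. Of 18 tested, 8 lay above CONTROL in all TEST libraries and 1 below, against 7.49% and 29.7% of all genes. Of the 8, Il17rb and Pparg reached 1 FPKM only in TEST libraries, so the filter favoured their place above. By limma 0 passed, with 8 at an unadjusted p under 0.05 against 10.4% of all genes, and the list median was 0.52. Gata3 was at 81.8, 95.4 and 98.1 FPKM in TEST 1, 2 and 3 and at 39.1 and 12.4 FPKM in CONTROL 1 and 2 (2.02 ± 0.48, limma adjusted p = 0.424). Il1rl1, the receptor for IL-33, was at 69.9, 71.6 and 83.8 FPKM in TEST and at 33.1 and 2.62 FPKM in CONTROL. The TEST libraries lay close together for both genes, while CONTROL 1 and CONTROL 2 differed. Pparg, a nuclear receptor, was at 1.71 to 6.84 FPKM in TEST and 0.83 and 0.31 FPKM in CONTROL. Without CONTROL 2 the list median was 0.25, and without CONTROL 1 it was 1.26.

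Other parts of the TSLP pathway showed small differences. Of 12 tested genes of the receptor and its signalling, Crlf2 included, 2 lay above and 1 below, against 7.49% and 29.7% of all genes. The median was -0.14, or 0.13 with median-ratio scaling. Crlf2, the targeted gene, was 1 of the 2 above and reached 1 FPKM only in TEST libraries, so its place was fixed in advance. The other gene above was Il2rg, a shared cytokine receptor chain, and the 1 below was Stat6. Beside Crlf2, the kinase Jak1 was at 107 to 130 FPKM in TEST and 127 and 187 FPKM in CONTROL, and the IL-2 receptor chain Il2ra at 170 to 256 FPKM and 186 and 138 FPKM, both overlapping. Among 13 genes listed as responding to STAT5, 4 lay above and 2 below, against the same shares of all genes. Whether STAT5 raises or lowers each of them in these cells was not tested. Cish, an inhibitor of cytokine signalling, was at 202, 204 and 155 FPKM in TEST and at 127 and 54.6 FPKM in CONTROL, and Lif, a cytokine of the IL-6 family, at 13.5 to 16.4 FPKM and 4.51 and 5.41 FPKM. The repressor Bcl6, also on this list, was lower in TEST, at 5.30 to 12.2 FPKM against 19.7 and 35.5 FPKM in CONTROL.

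Genes of naive and central memory cells were mostly lower in TEST. Of 19 tested, 13 lay below CONTROL in all TEST libraries, against 29.7% of all genes, 0 lay above, 0 passed limma with 9 at an unadjusted p under 0.05, and the median was -0.92. Klf2, a factor of quiescence and recirculation, was at 13.2, 8.14 and 19.5 FPKM in TEST 1, 2 and 3 and at 34.3 and 69.2 FPKM in CONTROL 1 and 2. TEST 3 was the TEST library nearest to CONTROL, and the groups did not overlap. The chemokine receptor Ccr7 was at 85.6 to 89.4 FPKM in TEST and 198 and 138 FPKM in CONTROL, and the kinase Txk at 3.23 to 4.76 FPKM and 12.3 and 21.1 FPKM. With median-ratio scaling 10 members lay below and 1 above, and the median was -0.64.

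Genes of effector memory and tissue cells depended on CONTROL 2. Of 18 tested, 4 lay above and 0 below, against 7.49% and 29.7% of all genes, and the median was 0.97, but 0.03 without CONTROL 2. Lgals3, a galectin, was at 27.7, 33.8 and 33.9 FPKM in TEST and at 15.2 and 5.28 FPKM in CONTROL. From a separate list, of chemokine receptors and integrins, Ccr2, a receptor for inflammatory chemokines, was at 30.3 to 43.5 FPKM in TEST and at 17.5 and 1.70 FPKM in CONTROL. In each the CONTROL 2 library was the lowest. Proliferation genes had a median of 0.55 over 20 genes with 0 above and 1 below, and of -0.25 without CONTROL 2.

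T helper 1, regulatory and follicular genes showed no common direction. The Th1 list had a median of 0.11, or -0.18 without CONTROL 2, with 3 of 15 above and 2 below, against 7.49% and 29.7% of all genes. Ifng, its main cytokine, was at 12.0, 13.4 and 9.04 FPKM in TEST and at 5.99 and 6.77 FPKM in CONTROL, and the IL-12 receptor chain Il12rb2 at 1.77 to 3.74 FPKM and 14.6 and 6.06 FPKM. The regulatory T cell list had a median of 0.41, or -0.21 without CONTROL 2. Its master factor Foxp3 was at 83.8, 89.5 and 21.9 FPKM in TEST and at 233 and 64.5 FPKM in CONTROL, with overlap. Of 12 follicular helper genes 4 lay below and 0 above, near the 29.7% of all genes that lay below, with a median of -0.40.

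Glycolysis genes had 7 of 17 above and 2 below, against 7.49% and 29.7% of all genes, and a median of 0.32. With median-ratio scaling 12 lay above and 0 below. Ldha, lactate dehydrogenase A, was at 256, 282 and 337 FPKM in TEST and at 174 and 164 FPKM in CONTROL, and Eno1, an enolase, at 187, 177 and 238 FPKM and 122 and 110 FPKM. Of 17 interferon stimulated genes 4 lay above and 7 below, against 7.49% and 29.7% of all genes. Ifit3, an antiviral protein, was at 0.81 to 3.51 FPKM in TEST and at 9.76 and 5.89 FPKM in CONTROL, opposite to Ifitm2.

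The leading genes lower in TEST did not pass the test on FPKM as deposited. H2-Q6, a non-classical class I gene, was at 0, 0.96 and 1.13 FPKM in TEST 1, 2 and 3 and at 96.1 and 25.5 FPKM in CONTROL 1 and 2 (-4.88 ± 0.60, limma adjusted p = 0.211), and it passed without TEST 3 (adjusted p = 0.0281) and without CONTROL 2 (adjusted p = 0.0248), where 1 group was a single mouse sample. With all libraries it fell by the same test with TPM (adjusted p = 0.0146) and without ribosomal RNA genes (adjusted p = 0.0360). Over all 17 alternatives its adjusted p was 0.0146 to 0.558. Its neighbour H2-Q7 was at 67.2 to 95.9 FPKM in TEST and at 306 and 242 FPKM in CONTROL. These genes share sequence, so their reads may be assigned uncertainly. Itm2a, a membrane protein of activated T cells, was at 2.91 to 5.49 FPKM in TEST and at 24.1 and 41.7 FPKM in CONTROL. Cd27, a costimulatory receptor, was at 36.3 to 49.5 FPKM in TEST and at 136 and 217 FPKM in CONTROL. Myb, a transcription factor of progenitors and memory cells, was at 7.12 to 14.9 FPKM in TEST and at 54.6 and 38.0 FPKM in CONTROL. None of these overlapped between groups, as was so for the 29.7% of all genes tested that lay below CONTROL. They were chosen by the smallest p, which favours genes without overlap.

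**Figure D4:**
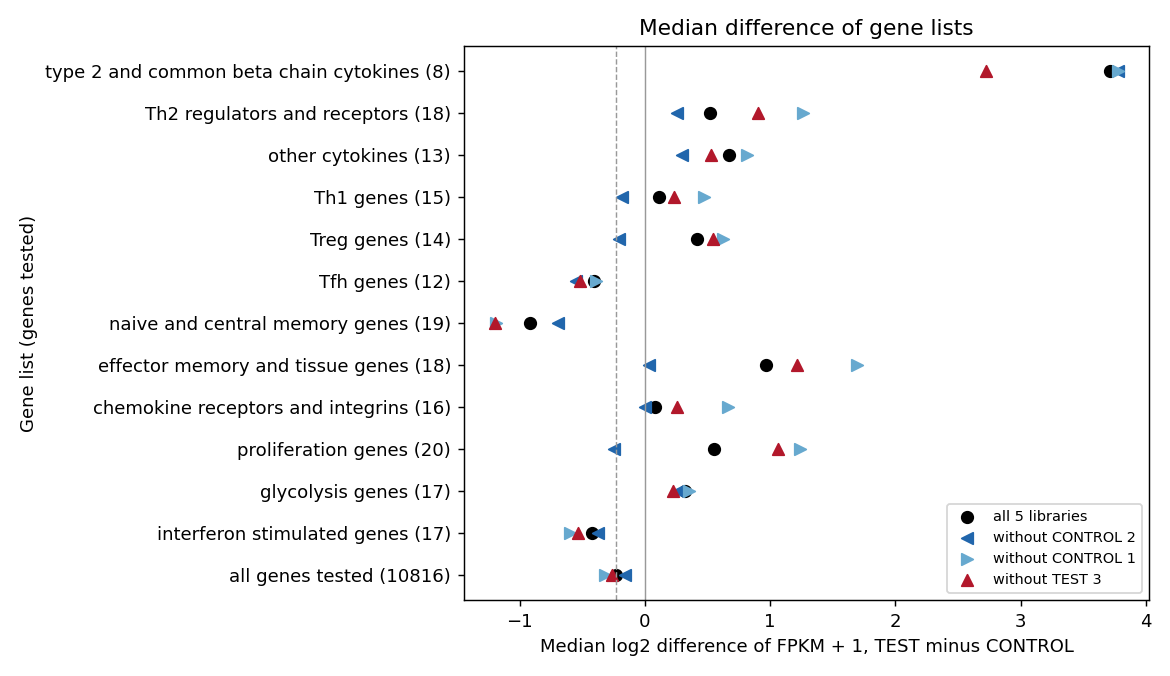
Median log2 difference (TEST minus CONTROL) of 12 gene lists and of all genes tested, with the number of genes tested in parentheses, from all 5 libraries and with 1 library left out. The type 2 cytokine median is 3.71, or 2.73 without TEST 3, and the effector memory median is 0.97, or 0.03 without CONTROL 2. The dashed line is the all-gene median of -0.23.

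Because the TSLPRKO and Ly5.1 alleles differ between donors, genes near them were counted. Of 73 tested genes within 5 Mb of Crlf2, 4 lay above and 18 below, and of 36 within 5 Mb of Ptprc, 1 lay above and 14 below, with 0 calls by limma in either window and 7 and 6 genes at an unadjusted p under 0.05. Over all genes the shares were 7.49% above, 29.7% below and 10.4% at an unadjusted p under 0.05. The called gene Ctse lies on chromosome 1, as does Ptprc (138062859 to 138175756), but outside the 5 Mb window. How far the donor segment around Ptprc extends, and whether it holds Ctse, was not tested.

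Node site was compared in TEST 1 and TEST 2, which share mice, with 1 library each and so without a test. Of 7256 genes at 5 FPKM or more in either library, 78 (1.07%) were at least 2-fold higher and 76 (1.05%) at least 2-fold lower in the draining nodes. The largest was Bpifa2, a secreted salivary protein, at 99.0 FPKM in TEST 1 and 1.86 FPKM in TEST 2. The largest the other way, after the unannotated Gm9746, was the histone gene Hist1h2ad, at 0 and 12.8 FPKM. TEST 3 against TEST 2, both non-draining nodes of different mice, had 286 of 7393 genes (3.87%) at least 2-fold higher and 219 (2.96%) at least 2-fold lower, led by Il2, Il3 and Ccl1, the last at 338 FPKM in TEST 3 and 22.0 FPKM in TEST 2. Between CONTROL 1 and CONTROL 2, 586 of 8184 genes (7.16%) were at least 2-fold higher and 740 (9.04%) at least 2-fold lower in CONTROL 1. The transcription factors Egr2, at 5.79 FPKM in CONTROL 1 and 79.9 in CONTROL 2, and Hivep3, at 2.70 and 94.4 FPKM, were higher in CONTROL 2. Cd79a, a B cell receptor component, was at 11.9 FPKM in CONTROL 2 and at most 1.21 FPKM elsewhere, and the 10 B cell markers summed to 32.3 FPKM there against 2.38 to 4.90 FPKM in the other 4 libraries.

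Salivary gland genes, a list of 15 drawn up after values were seen, had 9 members tested and stood out mainly in CONTROL 1. Bpifa2 was at 180 FPKM in CONTROL 1 and 99.0 FPKM in TEST 1, against 1.86 to 3.64 FPKM in the other 3 libraries. The demilune protein gene Dcpp2 was at 133 FPKM in CONTROL 1 and 5.29 FPKM in CONTROL 2, and at 0, 2.04 and 7.77 FPKM in TEST 1, 2 and 3, and the salivary amylase gene Amy1 at 40.8 FPKM in CONTROL 1 and 0 to 2.31 FPKM elsewhere. CONTROL 1 was the highest library for these 3 genes, and the draining TEST 1 was high for Bpifa2 but not for Dcpp2 or Amy1. The kallikrein gene Klk1 was at 5.92 and 1.96 FPKM in CONTROL 1 and 2 and listed at 0 in all TEST libraries. In the group comparison 5 of the 9 lay below and 0 above, against 29.7% and 7.49% of all genes, with a median of -1.64. Klk1, Amy1 and the further listed gene Spt1 reached 1 FPKM only in CONTROL libraries, so the filter fixed their place below. As the list was drawn up from these values, the counts describe it and do not test it. Without CONTROL 2 the median was -3.53, with CONTROL 1, where these genes stood out, alone in its group.

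**Figure D5:**
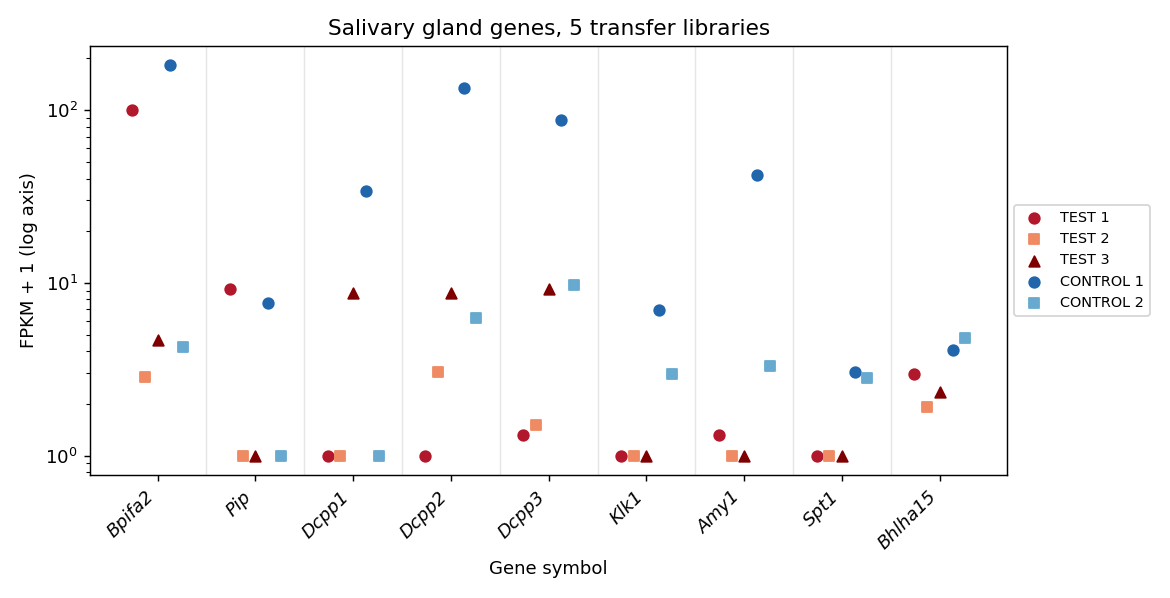
FPKM + 1 on a log axis for the 9 salivary gland genes tested, 1 point for each of the 5 libraries. Bpifa2 is at 180 FPKM in CONTROL 1 and 99.0 FPKM in TEST 1, which held draining nodes only, and at most 3.64 FPKM in the other 3. CONTROL 2, which held draining and non-draining nodes, is at 3.22 FPKM.

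The transfer contrast was set beside the submitters' TEST and CONTROL labels in the other 5 libraries, which share no sample with it and differ in genotype, strain and tissue. TEST 4 was K14-TSLP +/tg, MMTV-PyMT +/tg, TSLPR +/- (C57BL/6), and CONTROL 3 was spleen of K14-TSLP +/tg, MMTV-PyMT +/tg, TSLPR -/- (C57BL/6). The Balb/c libraries were TEST 5, a Rag1 -/- host given CD4+ cells, and TEST 6, Rag1 +/-, both with K14-TSLP and MMTV-PyMT, and CONTROL 4, Rag1 +/- with neither transgene named. All but CONTROL 3 were from lymph nodes, and each was 1 mouse. The difference between the contrasts was called in 0 genes by the limma interaction term, with 331 genes (3.06%) at an unadjusted p under 0.05. Hdc was at 18.4, 1.01 and 3.25 FPKM in TEST 4, 5 and 6 and at 2.33 and 0.91 FPKM in CONTROL 3 and 4, so its log2 difference was 1.12 there and 5.13 in the transfer, with an interaction of 4.01 ± 1.14 (limma adjusted p = 0.923). Il1r2, the decoy receptor for IL-1, was at 35.9 to 56.0 FPKM in those TEST libraries and at 3.35 and 2.02 FPKM in CONTROL, but at 3.92 to 20.5 and at 30.6 and 8.04 FPKM in the transfer.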

How the data were processed

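CD4+ T cell RNA was sequenced from 10 libraries, of which 5 are described here. The authors deposited 1 table of FPKM values per gene and library, made from HiSeq reads. The submitters' processing notes name Bowtie, BWA, RSEM and mm10 without versions, and FPKM keeps no counts, so no count model was used. Samples were grouped by their labels. The members and gene lists were chosen with earlier results of these data known, and the salivary gland list after values were seen. Values were analysed as log2(FPKM + 1) with limma 3.58.1 in R 4.3.3 (mean trend, two-sided, Benjamini-Hochberg over 10816 genes, threshold 0.05), with TEST 1 and TEST 2 averaged because they share mice. A fold on this scale understates the change of low genes. With 2 against 2 samples a permutation test cannot reach 0.05 and was not used. Genes at 1 FPKM or more in 2 libraries were kept. A gene under 1 FPKM in every library of a group, such as Crlf2 or Hdc in CONTROL, was kept only through the other group. Genes named were the 15 smallest p in each direction with a mean of at least 2 FPKM in the higher group, Crlf2, all type 2 cytokines, up to 4 per other list, and the largest folds of the pair and interaction comparisons; Il1rl1, Foxp3, Cd3e, Fcer1a, Mcpt8, Cpa3, Amy1, Klk1, Il2 and Ccl1 as the leaders of TEST 3 against TEST 2, and the genes of the plots were added after their values were seen. The fit was run on simulated data with independent genes and a spread equal in both groups. This checks the computation and not how well changes are called in these samples. Gene positions are from RefSeq GRCm38.p6, which matched 17399 of the 17457 genes. P-values measure the spread between these mouse samples only. The 17 alternatives covered scaling, filter, pseudocount, prior and each library left out.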

Additional observations from a re-analysis of the deposited data

Results flagged for a closer look

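In 274 of 10816 genes tested (2.53%) the TEST libraries lay wholly to one side of CONTROL in the transfer and wholly to the other side in the remaining 5 libraries, with 270 lower in the transfer and higher in the others and 4 the other way. This used FPKM as deposited, where 29.7% of all genes lay below and 7.49% above in the transfer. With median-ratio scaling those shares were 15.6% and 16.1%, and the split was not counted again. The shares each way in the remaining 5 libraries were not counted. The 7 named here, 5 lower and 2 higher in the transfer, are those among the genes chosen for naming. The filter used the transfer libraries only. Gm10052 and Mreg reached 1 FPKM there only in CONTROL, and 5430402O13Rik only in TEST, so the filter favoured their direction in the transfer. None passed the limma interaction test. Gm10052 was at 0, 0 and 0.49 FPKM in TEST 1 to 3 and 4.46 and 7.2 FPKM in CONTROL 1 and 2, but at 43.9, 2.83 and 4.04 FPKM in TEST 4 to 6 and 0.98 and 2.42 FPKM in CONTROL 3 and 4, an interaction of -4.33 on the log2 scale (limma adjusted p = 0.923). Lck, the kinase next to the T cell receptor, was at 65.6, 63.7 and 59.6 FPKM in TEST 1 to 3 and 82 and 136 FPKM in CONTROL 1 and 2, but at 211, 103 and 108 FPKM in TEST 4 to 6 and 73.6 and 94.8 FPKM in CONTROL 3 and 4, an interaction of -1.42 on the log2 scale (limma adjusted p = 0.923). 5430402O13Rik was at 0.77, 1.77 and 1.39 FPKM in TEST 1 to 3 and 0 and 0 FPKM in CONTROL 1 and 2, but at 0, 0.44 and 0 FPKM in TEST 4 to 6 and 1.74 and 1.48 FPKM in CONTROL 3 and 4, an interaction of 2.41 on the log2 scale (limma adjusted p = 0.923). Hspb1, a small heat shock protein, was at 12.8, 8.15 and 3.7 FPKM in TEST 1 to 3 and 2.83 and 1.56 FPKM in CONTROL 1 and 2, but at 1.74, 0.45 and 0.26 FPKM in TEST 4 to 6 and 15.7 and 2.14 FPKM in CONTROL 3 and 4, an interaction of 3.30 on the log2 scale (limma adjusted p = 0.923). 1110065P20Rik was at 0.94, 0.59 and 1.21 FPKM in TEST 1 to 3 and 5.26 and 6.25 FPKM in CONTROL 1 and 2, but at 11.7, 5.83 and 6.37 FPKM in TEST 4 to 6 and 1.42 and 1.08 FPKM in CONTROL 3 and 4, an interaction of -3.72 on the log2 scale (limma adjusted p = 0.477). Pex3 was at 4.39, 6.18 and 4.33 FPKM in TEST 1 to 3 and 8.05 and 9.74 FPKM in CONTROL 1 and 2, but at 13.6, 11.6 and 13 FPKM in TEST 4 to 6 and 5.51 and 4.69 FPKM in CONTROL 3 and 4, an interaction of -1.95 on the log2 scale (limma adjusted p = 0.923). Mreg was at 0, 0.29 and 0.22 FPKM in TEST 1 to 3 and 2.92 and 1.77 FPKM in CONTROL 1 and 2, but at 2.13, 5.84 and 1.82 FPKM in TEST 4 to 6 and 1.11 and 0 FPKM in CONTROL 3 and 4, an interaction of -2.92 on the log2 scale (limma adjusted p = 0.923).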

How the results depend on the processing

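No paired analysis was possible because the labels give no replicate number shared between TEST and CONTROL. The count of called genes was 2 (Hdc and Ctse). It was 1 (Hdc) with a pseudocount of 0.1, with median-ratio or quantile scaling, or with no mean trend, and 0 with no filter on low values or with the spread of all 9 mouse samples (limma; 1368 and 550 genes at an unadjusted p under 0.05). Leaving out 1 library gave 2 to 14 calls, the 14 without CONTROL 1. Without TEST 3, CONTROL 1 or CONTROL 2 the lone sample left in that group was assumed to vary like the other group. Hdc had adjusted p-values of 0.160 with no filter and 0.345 with the spread of all 9 samples. The adjusted p of Ctse was 0.0512 with a pseudocount of 0.1, 0.157 with median-ratio scaling, 0.264 with quantile scaling, 0.177 with no trend, 0.422 with no filter and 0.853 with the spread of all 9 samples. In 12 cases a named gene that had not passed did so under an alternative, 6 of them without CONTROL 1. Counts of genes with a 2-fold gap were 89 higher and 189 lower with a pseudocount of 0.1, 19 and 12 with a pseudocount of 5, and 181 lower with TPM. The interaction count was 0 without TEST 4 and with C57BL/6 libraries only (smallest limma adjusted p 0.326 and 0.0902), with 436 and 2111 genes at an unadjusted p under 0.05 against 331. The C57BL/6 fit has 1 TEST and 1 CONTROL library outside the transfer. Named genes that had not passed changed sign in 38 cases, given as log2 differences. With median-ratio scaling, Tmem176b 0.062, Cd8a 0.037, Csf3r 0.022, Cd74 0.028. With quantile scaling, Tmem176b 0.11, Cd8a 0.13, Csf3r 0.097. With TPM, Irf4 -0.049, Xbp1 -0.18. With each library as a sample, Xbp1 -0.026, Cd8a 0.030. Without ribosomal RNA genes, Xbp1 -0.029. With a pseudocount of 0.1, Lcn2 -0.037. Over the fits that each left out 1 library the ranges were Ccr6 -2.08 to 0.30, Tmem176b -0.56 to 0.28, Klrg1 -0.083 to 2.85, Nkg7 -0.075 to 2.85, Aurkb -0.29 to 2.26, Cd79a -3.11 to 0.17, Irf4 -0.50 to 0.77, Xbp1 -0.095 to 0.10, Cd8a -0.57 to 0.39, Cd68 -0.13 to 0.93, S100a9 -0.79 to 0.42, Csf3r -0.54 to 0.066, Cd74 -0.30 to 0.23, Kit -0.41 to 0.43, Epcam -0.25 to 1.71, Krt18 -1.89 to 0.66, Hba-a1 -2.31 to 0.77, Rpph1 -0.033 to 1.65, Il1r2 -1.72 to 0.16. The cause of these changes was not tested. Of the other named genes' values, 2424 kept direction and call. Depth is known only relative to TEST 1.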
